A study of Mus musculus with 8 samples.

Results

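Sorting nexins and vacuolar protein sorting (VPS) proteins were followed in mouse macrophages during the first 3 days of osteoclast formation. The genes were all those whose array symbol begins with Snx or Vps and a number. The array carried 57 such genes, 28 Snx and 29 Vps, on 84 probes. Of these, 51 (25 Snx and 26 Vps) passed the detection call of the array (p under 0.05) on 2 or more of the 8 arrays and were tested among 8663 genes. Where a gene had several detected probes, the brightest on average was used. Detection was complete on all 8 arrays for 46 genes, whereas Snx19 and Snx32 were detected on 7, Vps26b and Vps4b on 3, and Vps37a on 2. Snx5, with 1 array at most, fell just outside the rule. Snx22, Snx31, Vps13a, Vps13c and Vps37d were detected on 0 arrays.

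Primary macrophages were grown from femur and tibia marrow of C57BL/6 mice aged 6 to 8 weeks. The marrow cells spent 16 h in 5 ng/ml M-CSF, the growth factor that macrophages need, and the non-adherent cells then 3 days in 30 ng/ml M-CSF. Day 0 is this state before RANKL, the ligand that turns macrophages into bone-resorbing osteoclasts, and days 1, 2 and 3 had 50 ng/ml RANKL beside 30 ng/ml M-CSF, with 2 single-colour bead arrays per day. No array came from M-CSF alone on days 1 to 3, so RANKL and time in culture cannot be told apart. Whether both arrays of a day had their own culture or mouse is not in the labels, and p-values here then rest on the spread between arrays alone, which may be technical.

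Endosomes sort what a cell has taken up. Cargo goes back to the surface or to the Golgi, or onward to the lysosome. Sorting nexins share a PX domain that binds membrane phosphoinositides, and those that also carry a BAR domain bend membrane into recycling tubules. VPS proteins are subunits of larger machines. Retromer and retriever recover cargo, ESCRT complexes enclose ubiquitinated cargo in inner vesicles, HOPS and CORVET tether endosomes and lysosomes before fusion, and GARP receives vesicles at the trans-Golgi network. Osteoclasts use this traffic to bring acid-secreting membrane to the bone surface and to pass degraded matrix through the cell.

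Each array detected 11281 to 11361 of 25697 probes, and arrays of a day correlated at r = 0.994 to 0.996 across genes, which are not independent replicates. The osteoclast markers followed the labels: 10 of 11 tested rose from day 0 to day 3, among them Ctsk by 6.87, Acp5 by 5.93 and Nfatc1 by 1.96 on the log2 scale, and the log2 of their summed level went from 10.2 and 10.4 to 16.4 and 16.5. Of 8 macrophage markers 7 fell, with Adgre1 at -2.73, and their summed level went from 14.6 and 14.4 to 11.3 on both day 3 arrays. Markers listed for other cells moved as well. Of 7 neutrophil markers 6 fell, with the summed level going from 10.3 and 10.4 to 8.42 on both arrays. Both tested T and NK cell markers fell (10.4 on both arrays to 6.64 and 6.74), as did 1 of 3 B lineage markers. So did Pf4, the 1 tested gene of the erythroid and megakaryocyte list, and whether it came from such cells was not tested. Of 2 tested stromal markers, Dcn rose from day 0, where it was not detected, and Col1a1 did not pass (0.09 at day 3, adjusted p = 0.573). By day 3, of 2 dendritic markers 1 rose and 1 fell, and of 2 mast cell and basophil markers 0 passed. In bulk RNA, fewer cells of a type and less RNA per cell cannot be told apart, and the part of these cells in the changes below was not tested.

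All levels below are log2 intensities after background correction and quantile normalization, and a change is a difference of 2 such levels, so that a change of 1 is 2-fold. Errors are standard errors (SE) of limma's fit over all 8 arrays, with n = 2 per day. A change was called at a Benjamini-Hochberg adjusted p under 0.05 over all 8663 genes. Over the 4 days, limma's moderated F test passed for 16 of 25 Snx and 16 of 26 Vps genes, together 62.7% beside 72.4% of all genes. No change from day 0 was called on any day for 18 of 51 members (35.3%), beside 25.3% of all genes.

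Snx10 had the largest rise of the 51 genes. This small sorting nexin is a PX domain with little else. Its loss in humans and mice causes osteopetrosis, the disease of dense bone that follows when osteoclasts fail to resorb. The day 0 arrays read 11.44 and 11.10 and the day 1 arrays 11.72 and 11.39. On day 2 the arrays read 13.92 and 13.83, and on day 3 they read 13.73 and 13.81. The arrays of days 0 and 1 overlapped, and all 4 later arrays lay above all 4 earlier ones. The change was 0.29 ± 0.15 at day 1 (adjusted p = 0.169), 2.61 ± 0.15 at day 2 (6.09-fold, adjusted p = 1.31e-05) and 2.50 ± 0.15 at day 3 (5.67-fold, adjusted p = 1.22e-05). Nearly all of the rise fell between days 1 and 2, where the change was 2.32 ± 0.15 (adjusted p = 5.66e-05), and from day 2 to day 3 it was -0.10 (adjusted p = 0.680).

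Snx11, the closest relative of Snx10, went the other way. Its arrays read 10.63 and 10.82 on day 0, 10.61 and 10.52 on day 1, 10.21 and 10.31 on day 2, and 10.18 and 10.23 on day 3. Every array of days 2 and 3 lay below every earlier one. The fall was small, 0.46 ± 0.10 at day 2 (-0.46 on the log2 scale, adjusted p = 0.00658) and 0.52 ± 0.10 at day 3 (-0.52, adjusted p = 0.00327).

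Because Snx10 rose most, a promoter window of it is shown, 1 of 2 held by RefSeq on GRCm38.p6 (chr6:51523834-51524133, plus strand, 250 bases before to 50 after the start). Promoter windows were found for 35 of 51 members, and 7 motifs were searched on both strands: the AP-1 core TGANTCA, the NFAT cores TGGAAA and GGAAAA, the NF-kB form GGGGANNNCC, and the nested E-box forms CACGTG, TCACGTGA and GTCACGTGAC. The capitals mark a TGANTCA match that begins at -98 from the start:
Snx10: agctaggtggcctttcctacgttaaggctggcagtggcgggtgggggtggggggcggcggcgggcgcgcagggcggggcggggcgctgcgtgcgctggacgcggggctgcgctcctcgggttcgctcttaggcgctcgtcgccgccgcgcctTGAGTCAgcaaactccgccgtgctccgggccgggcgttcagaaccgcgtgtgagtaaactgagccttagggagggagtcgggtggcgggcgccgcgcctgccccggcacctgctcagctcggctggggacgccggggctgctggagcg
The other member with a TGANTCA match was Vps37c, at -96, and 7.81% of the 32851 windows in the table hold one. Counted by gene, it was held by 5.71% of the 35 members and 8.97% of all 27025 genes with a window. The second Snx10 window (chr6:51524010-51524309) holds TGGAAA and GGAAAA, at 2 and 3 bases past its start. A match is a description of the letters and shows no binding.

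**Figure D1:**
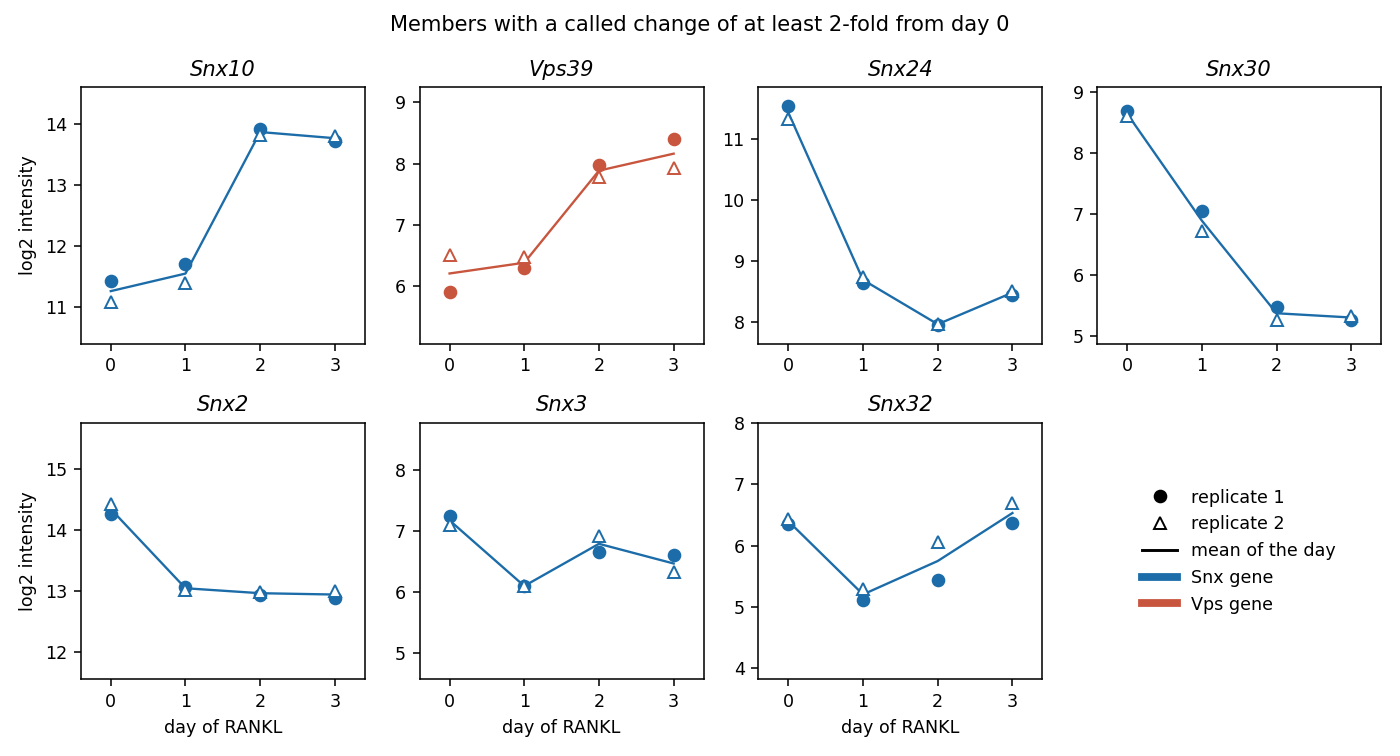
Log2 intensity (vertical axis) by day of RANKL (horizontal axis), each panel spanning the same number of log2 units. The 7 genes had a called change of at least 2-fold from day 0 with the main settings. Circles are replicate 1, triangles replicate 2 and lines the mean of the day. Snx10 and Vps39 step up between days 1 and 2, Snx24, Snx30 and Snx2 step down by day 1, and Snx3 and Snx32 dip at day 1.

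At day 1 more Snx genes fell than rose. Falls also outnumbered rises in each list of partner genes outside both families, though narrowly in some. At day 1, 12 of 25 Snx genes fell and 0 rose in limma's test, beside 21.9% of all genes lower and 24.0% higher. At an unadjusted p under 0.05 the Snx counts were 13 lower and 1 higher, and other settings called 0 to 2 higher. Of 26 Vps genes 3 fell and 2 rose; lower Vps genes numbered 6 with no background correction and 7 with a mean-variance trend, where lower Snx genes numbered 14 and 13. The median change was -0.46 over Snx and -0.04 over Vps genes, beside 0.03 over all genes. Partners of HOPS, CORVET and lysosome fusion, described further below, went from day 0 to day 1 with 0 of 10 higher and 7 lower (median -0.54). Of 16 retromer and retriever partners 1 was higher and 7 were lower, and of 19 ESCRT partners 0 were higher and 6 lower. The other lists leaned less. Of 8 cargo receptors 3 were higher and 4 lower. Of 9 genes around the class III PI3-kinase 1 was higher and 3 lower, and of 6 Golgi SNARE and GARP partners 1 and 2.

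The Snx genes with the largest falls came from several branches. Snx24, a PX-only sorting nexin of little known function, read 11.54 and 11.32 on day 0 and 8.64 and 8.74 on day 1. It read 7.95 and 7.98 on day 2 and 8.45 and 8.52 on day 3. No later array came within 2 log2 units of day 0. Its changes from day 0 were -2.74 ± 0.10 (adjusted p = 4.97e-06), -3.47 ± 0.10 (7.48e-07) and -2.95 ± 0.10 (1.18e-06), with a called recovery of 0.52 from day 2 to day 3 (adjusted p = 0.0157).

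Snx30, a BAR-domain partner of Snx4 in recycling and autophagy, went down in 2 steps. Its arrays read 8.68 and 8.60 on day 0, 7.05 and 6.72 on day 1, 5.47 and 5.27 on day 2, and 5.27 and 5.33 on day 3. The day 1 arrays lay between the others with no overlap, and days 2 and 3 overlapped. The changes from day 0 were -1.75 ± 0.13 (adjusted p = 8.80e-05), -3.27 ± 0.13 (2.66e-06) and -3.34 ± 0.13 (1.98e-06), and the step from day 1 to day 2 was -1.52 ± 0.13 (adjusted p = 0.000166). Snx4 itself fell by 0.39 ± 0.10, 0.62 ± 0.10 and 0.95 ± 0.10 on the 3 days (adjusted p = 0.0182, 0.00186 and 0.000194), and its other partner Snx7 changed by -0.47, -0.73 and 0.04 ± 0.33, none of which passed.

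Among the sorting nexins that coat retromer tubules, Snx2 fell most. Snx2 read 14.25 and 14.42 on day 0, and 12.88 to 13.07 on the 6 later arrays, well apart from day 0. It fell by 1.30 ± 0.10 at day 1 (adjusted p = 8.05e-05), 1.38 ± 0.10 at day 2 and 1.40 ± 0.10 at day 3, and its 2 other detected probes changed by -1.52 to -1.83 on each day, all called. Its paralog Snx1 changed by -0.50 ± 0.22 at day 1 (adjusted p = 0.107) and fell by 0.65 at day 2 (adjusted p = 0.0427) and 0.94 at day 3 (adjusted p = 0.00896). Snx6 changed by -0.08, 0.22 and -0.14 ± 0.10 and passed on no day against day 0.

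Snx32, a relative of Snx6, dipped and returned. Its arrays read 6.36 and 6.44 on day 0, 5.12 and 5.28 on day 1, 5.43 and 6.07 on day 2, and 6.36 and 6.70 on day 3. Day 3 overlapped day 0, and 1 of the 2 day 1 arrays did not detect it. The changes were -1.20 ± 0.22 (adjusted p = 0.00412), -0.65 ± 0.22 (0.0398) and 0.13 ± 0.22 (0.626), and the rise from day 2 to day 3 was 0.79 (adjusted p = 0.0448).

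Snx3, a PX-only nexin that brings retromer to the Wnt carrier Wntless, also dipped, without a full return. It read 7.24 and 7.10 on day 0, 6.10 and 6.09 on day 1, 6.65 and 6.92 on day 2, and 6.60 and 6.33 on day 3. All later arrays lay below day 0, and day 1 lay lowest. The changes were -1.08 ± 0.13 (adjusted p = 0.00077), -0.38 ± 0.13 (0.0471) and -0.71 ± 0.13 (0.00339). Its paralog Snx12 changed by 0.38, 0.18 and -0.20 ± 0.15, none of which passed.

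The endocytic BAR nexins, which carry an SH3 domain and act with dynamin at clathrin pits, dipped in part. Snx18 read 11.39 and 11.49 on day 0, 10.46 and 10.43 on day 1, 11.22 and 11.23 on day 2, and 11.40 and 11.58 on day 3. It fell by 1.00 ± 0.09 at day 1 (adjusted p = 0.000231), and its changes at day 2 (-0.22, adjusted p = 0.0908) and day 3 (0.05, adjusted p = 0.666) did not pass. Snx33 fell by 0.78 ± 0.22 at day 1 (adjusted p = 0.0275) and 0.66 at day 3 (adjusted p = 0.0397), while Snx9 changed by -0.16, 0.16 and 0.12 ± 0.17. Snx8, which acts between endosomes and Golgi, fell by 0.67 ± 0.09 at day 1 (adjusted p = 0.000977) and then rose by 0.76 from day 1 to day 2 (adjusted p = 0.000568), with changes of 0.09 and 0.02 from day 0 at days 2 and 3.

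Other falls at day 1 lasted. Snx16, a PX nexin of late endosomes, fell by 0.91, 0.80 and 0.74 ± 0.11 on the 3 days (adjusted p = 0.000597, 0.000753 and 0.000905). Snx17, whose FERM domain holds integrins and LRP1 for recycling by retriever, fell by 0.46, 0.48 and 0.41 ± 0.08 by its brighter probe (adjusted p = 0.00463, 0.00285 and 0.00483). Its other detected probe changed by 0.13, 0.17 and 0.11, not passing, and with all detected probes averaged the calls were lost (adjusted p = 0.446 to 0.458).

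Of the 4 RGS nexins, a branch that links endoplasmic reticulum to other membranes, 2 were called higher at day 3, beside 29.2% of all genes. Snx14, mutated in a human ataxia, changed by -0.06 ± 0.08 at day 1 and rose by 0.46 at day 2 (adjusted p = 0.00272) and 0.97 at day 3 (adjusted p = 5.99e-05). Snx13 crossed its starting level: it read 8.70 and 8.65 on day 0, 7.89 and 8.04 on day 1, 8.45 and 8.43 on day 2, and 9.05 and 8.98 on day 3, with no overlap between days. It fell by 0.71 ± 0.09 at day 1 (adjusted p = 0.000742) and stood 0.34 above day 0 at day 3 (adjusted p = 0.0140). Under median scaling the latter was 0.14 (adjusted p = 0.257). Snx25 (-0.15, 0.20 and 0.33 ± 0.15) and Snx19 (0.15, -0.10 and 0.03 ± 0.27) did not pass.

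Of the remaining PX nexins, Snx21 rose at day 3 alone among the comparisons with day 0 (0.69 ± 0.12, adjusted p = 0.00243). Its relative Snx20, which binds the leukocyte adhesion protein PSGL-1, changed by -0.35 (called without either day 3 array and in 5 other settings), 0.03 and -0.15 ± 0.12, and Snx15 by 0.04, 0.18 and 0.21 ± 0.08, none passing.

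Leaving out arrays changed some day 1 calls. Snx33 missed the threshold without any 1 of the 4 arrays of days 0 and 1 (adjusted p = 0.0820 to 0.112) and Snx4 without day 0 replicate 1 or either day 1 array (0.0734 to 0.0851). Vps53 missed it without day 0 replicate 2 or either day 1 array (0.0599 to 0.0838), which left 1 higher Vps gene in those fits.

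**Figure D2:**
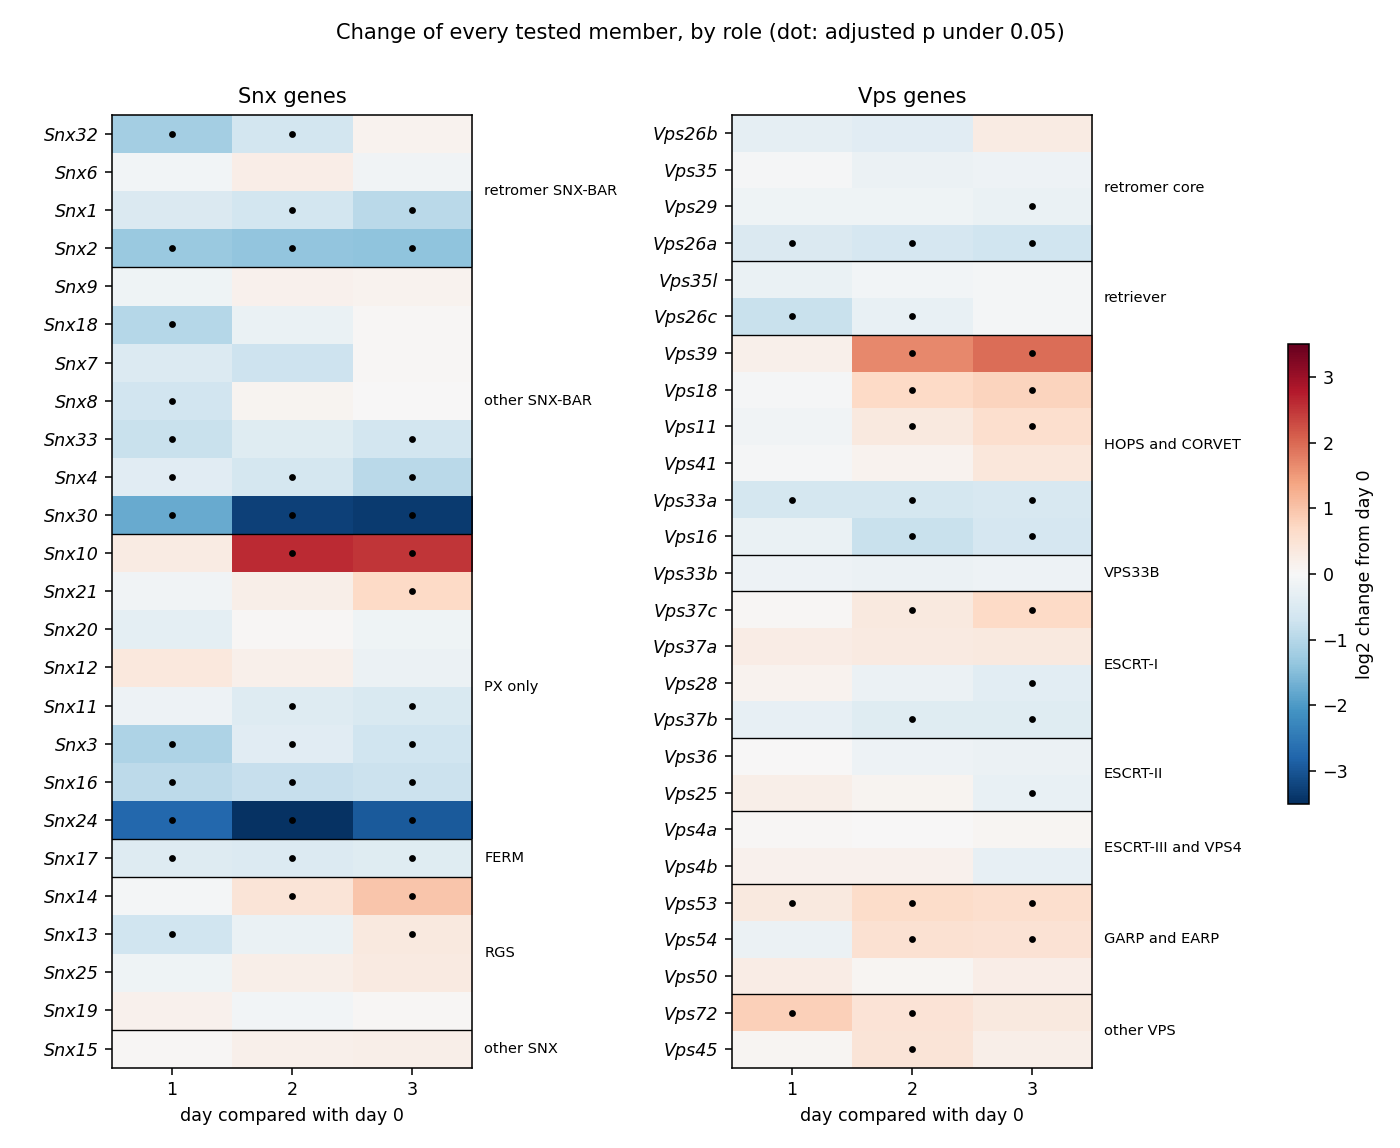
Log2 change from day 0 at days 1, 2 and 3 (columns) for the 25 Snx and 26 Vps genes (rows), grouped by role and ordered within a role by the day 3 change; red is higher, blue lower, and a dot marks an adjusted p under 0.05. Blue with dots is frequent in the Snx day 1 column, and the Vps panel is pale there, with Vps39, Vps18, Vps11, Vps53 and Vps54 red at days 2 and 3.

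At day 2, 8 Vps genes rose and 5 fell among 26 (30.8% and 19.2%), close to the 27.8% of all genes higher and below the 26.6% lower. Of 25 Snx genes 2 rose and 10 fell. At day 3 the counts were 6 higher and 7 lower for Vps and 4 higher and 10 lower for Snx genes, beside 29.2% and 29.8% of all genes. The medians were 0.04 and -0.23 at day 2 and 0.01 and -0.14 at day 3 for Vps and Snx genes, and 0.02 and -0.01 for all genes. These comparisons share the 2 day 0 arrays.

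The tethering complexes HOPS and CORVET changed in both directions: of 6 members 3 rose and 2 fell on each of days 2 and 3. Vps39, the HOPS subunit that binds Rab7 on late endosomes and lysosomes, rose most. It read 5.90 and 6.50 on day 0, 6.29 and 6.46 on day 1, 7.98 and 7.78 on day 2, and 8.40 and 7.92 on day 3. Days 0 and 1 overlapped, as did days 2 and 3, and the later pair lay above the earlier pair. The changes were 0.18 ± 0.24 at day 1 (adjusted p = 0.584), 1.68 ± 0.24 at day 2 (3.21-fold, adjusted p = 0.000899) and 1.96 ± 0.24 at day 3 (3.90-fold, adjusted p = 0.000350). A second probe gave 0.52, 1.98 and 2.34, all called.

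Vps18 and Vps11, shared by HOPS and CORVET, rose with it. Vps18 read 10.66 and 10.55 on day 0, 10.55 and 10.57 on day 1, 11.32 and 11.27 on day 2, and 11.38 and 11.36 on day 3, a rise of 0.69 ± 0.08 at day 2 (adjusted p = 0.000402) and 0.77 at day 3 (adjusted p = 0.000195). Vps11 rose by 0.35 ± 0.09 (adjusted p = 0.0131) and 0.58 (adjusted p = 0.00118). Vps41, the other HOPS-specific subunit, changed by -0.05, 0.13 and 0.40 ± 0.15 and did not pass (adjusted p = 0.0587 at day 3, called without day 0 replicate 2 and in 5 other settings).

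The pair that completes the shared core fell. Vps33a, which clamps SNAREs for fusion, read 11.23 and 11.31 on day 0 and 10.62 to 10.78 on the 6 later arrays, a fall of 0.61 ± 0.09, 0.62 and 0.55 (adjusted p = 0.00137, 0.000917 and 0.00139). A dimmer probe of Vps33a changed by -0.24, -0.28 and -0.41 and did not pass in limma's fit over detected probes (adjusted p = 0.369, 0.291 and 0.118). With the probes averaged the calls were kept. Vps16, the scaffold of Vps33a, read 11.00 and 11.11 on day 0, 10.83 and 10.78 on day 1, 10.35 and 10.23 on day 2, and 10.33 and 10.61 on day 3. It fell by 0.77 ± 0.12 at day 2 (adjusted p = 0.00140) and 0.58 at day 3 (adjusted p = 0.00459), and all 4 of its detected probes were lower on these days. Vps33b, the Vps33a paralog of a separate complex with Vipas39, changed by -0.19, -0.19 and -0.18 ± 0.11 by its brighter probe and did not pass. Its other detected probe went the other way, by 0.34, 0.15 and 0.03, and was called at day 1 in limma's fit over detected probes (adjusted p = 0.0335).

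In the cargo-binding trimer of retromer, 1 of 2 alternative arms fell on all 3 days. Vps26a read 12.95 and 12.86 on day 0 and 12.20 to 12.48 on the 6 later arrays and fell by 0.52, 0.60 and 0.69 ± 0.10 (adjusted p = 0.00614, 0.00238 and 0.00102). A dim second probe of Vps26a did not pass, and with the probes averaged the day 1 and day 2 calls were lost (adjusted p = 0.295 and 0.0919). Vps35, the backbone, changed by -0.05, -0.21 and -0.18 ± 0.11, none passing. Vps29, which retriever shares, changed by -0.15, -0.16 and -0.24 ± 0.08, the last called (adjusted p = 0.0378). With the detected probes of Vps29 averaged that call was lost (adjusted p = 0.146). In limma's fit over detected probes, its other probes changed by -0.34 (adjusted p = 0.0130) and 0.01 (adjusted p = 0.979) at day 3. Vps26b, the alternative arm, was detected on 1 day 0 array, on no array of days 1 and 2 and on both day 3 arrays, and at day 3 stood at least 1.14-fold above day 2 (adjusted p = 0.0269). In that bound the undetected day stands at the lowest detected signal or its own, whichever is higher. In retriever, Vps26c fell by 0.78 ± 0.09 at day 1 (adjusted p = 0.000624) and 0.26 at day 2 (adjusted p = 0.0482), and Vps35l changed by -0.23, -0.11 and -0.05 ± 0.09, none passing.

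Vps16, Vps33a and Vps26a, all lower at days 2 and 3, were the 3 of 35 members whose promoter window holds GTCACGTGAC, a long form of the CACGTG E-box, the core bound by TFE3, MITF and USF factors. They were grouped after this was seen. The sequences are shown 5′ to 3′ with 1 such match in capitals, beginning at -20 from the start in Vps16, -14 in Vps33a and -184 in Vps26a, from RefSeq on GRCm38.p6 (chr2:130424070-130424369 plus, chr5:123572966-123573265 minus and chr10:62486756-62487055 minus):
Vps16: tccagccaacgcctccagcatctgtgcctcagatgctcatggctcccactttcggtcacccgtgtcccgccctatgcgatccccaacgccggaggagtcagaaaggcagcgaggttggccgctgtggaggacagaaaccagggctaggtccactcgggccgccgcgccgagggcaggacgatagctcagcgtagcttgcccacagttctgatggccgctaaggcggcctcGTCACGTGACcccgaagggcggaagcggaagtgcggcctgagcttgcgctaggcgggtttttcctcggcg
Vps33a: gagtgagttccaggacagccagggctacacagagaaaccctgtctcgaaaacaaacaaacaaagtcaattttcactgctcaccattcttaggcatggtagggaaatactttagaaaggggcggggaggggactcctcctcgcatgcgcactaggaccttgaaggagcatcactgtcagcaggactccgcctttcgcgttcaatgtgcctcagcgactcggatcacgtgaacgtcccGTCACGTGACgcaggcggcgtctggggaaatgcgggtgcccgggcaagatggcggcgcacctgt
Vps26a: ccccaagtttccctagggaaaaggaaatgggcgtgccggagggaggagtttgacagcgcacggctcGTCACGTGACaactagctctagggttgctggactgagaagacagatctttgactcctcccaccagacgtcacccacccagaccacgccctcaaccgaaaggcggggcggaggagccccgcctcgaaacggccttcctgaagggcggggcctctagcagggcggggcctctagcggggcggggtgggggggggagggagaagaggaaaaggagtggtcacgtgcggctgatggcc
The long form lies in 0.326% of all 32851 windows and the core CACGTG in 7.15%. Counted by gene, the long form was held by 8.57% of the 35 members and 0.37% of all 27025 genes with a window. For the core these shares were 17.1% and 8.09%. The core was also present in Snx8, Snx18 and Vps50, of which Snx8 and Snx18 fell at day 1 and Vps50 passed on no day. Of the other motifs, TGGAAA was held by 4 members (11.4%, beside 23.9% of genes) and GGAAAA by 11 (31.4%, beside 26.1%). GGGGANNNCC was held by 1, Snx21 (2.86%, beside 6.47%).

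ESCRT-I has interchangeable VPS37 subunits, and 2 of them moved apart. Vps37c read 7.73 and 7.90 on day 0, 7.88 and 7.86 on day 1, 8.16 and 8.14 on day 2, and 8.46 and 8.55 on day 3. Vps37b read 9.66 and 9.74, 9.36 and 9.46, 9.22 and 9.31, and 9.16 and 9.36 on the same days. Every day 2 and day 3 array of Vps37c lay above, and of Vps37b below, its 4 earlier arrays, except that day 3 replicate 2 of Vps37b overlapped day 1. Vps37c rose by 0.33 ± 0.09 at day 2 (adjusted p = 0.0202) and 0.69 at day 3 (adjusted p = 0.000591), and Vps37b fell by 0.43 ± 0.10 on both (adjusted p = 0.0105 and 0.00929). Vps37a, detected on 0, 0, 1 and 1 arrays of the 4 days, did not pass.

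The other ESCRT genes with a VPS name had small changes. Vps28, the common ESCRT-I subunit, fell by 0.37 ± 0.08 at day 3 (adjusted p = 0.00793). In ESCRT-II, Vps25 fell by 0.26 ± 0.09 at day 3 (adjusted p = 0.0424) and Vps36 changed by 0.01, -0.17 and -0.21 ± 0.21. The ATPases that disassemble ESCRT-III, Vps4a (0.03, 0.02 and 0.08 ± 0.08) and Vps4b (0.15, 0.16 and -0.29 ± 0.19), did not pass.

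At the trans-Golgi, Vps53, a subunit of GARP and of the recycling complex EARP, rose by 0.35 ± 0.09, 0.65 and 0.59 (adjusted p = 0.0170, 0.000843 and 0.00116), and its 3 detected probes were all higher at days 2 and 3. GARP-specific Vps54 changed by -0.21 ± 0.13 at day 1 and rose by 0.54 at day 2 (adjusted p = 0.0133) and 0.52 at day 3 (adjusted p = 0.0140). EARP-specific Vps50 changed by 0.25, 0.07 and 0.22 ± 0.13, none passing. Vps45, a partner of Golgi and endosome SNAREs, rose at day 2 (0.46 ± 0.08, adjusted p = 0.00344). Vps72, a nuclear subunit of chromatin-remodelling complexes that shares only the name, rose by 0.83 ± 0.14 at day 1 (adjusted p = 0.00300) and 0.49 at day 2 (adjusted p = 0.0229).

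Leaving out single arrays moved the smaller calls. At day 2, Snx1 (adjusted p = 0.0670 to 0.213), Snx3 (0.0724 to 0.231) and Snx32 (0.0596 to 0.174) each missed the threshold without any 1 of the arrays of days 0 and 1 or day 2 replicate 1, and Vps26c (0.0718 to 0.171) without any 1 of the 6 arrays of days 0 to 2. Vps72 missed it without any 1 of the arrays of days 0 and 2 (0.0634 to 0.0906), Vps37c without day 0 replicate 1 or either day 2 array (0.0726 to 0.0928), Vps54 without day 0 replicate 1 or day 2 replicate 1 (0.0631 to 0.0723), Vps11 without either day 2 array (0.0506 to 0.0644) and Vps37b without day 0 replicate 2 or day 2 replicate 1 (0.0523 to 0.0622). The count of higher Vps genes at day 2 was thereby 5 without day 0 replicate 1, 4 without day 2 replicate 1 and 5 without day 2 replicate 2, and that of lower ones 3 without day 0 replicate 2 or day 2 replicate 1. At day 3, Vps25 missed it without any 1 of the 8 arrays (0.0551 to 0.153), Vps29 without any but day 0 replicate 1 (0.0630 to 0.141) and Snx33 without any but day 3 replicate 1 (0.0611 to 0.120). So did Vps54 without day 0 replicate 1 or day 3 replicate 2 (0.0611 to 0.0760), Snx13 without day 0 replicate 2 or day 3 replicate 1 (0.0594 to 0.0666) and Vps37b without day 3 replicate 1 (0.0517), where 4 Vps genes were lower.

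**Figure D3:**
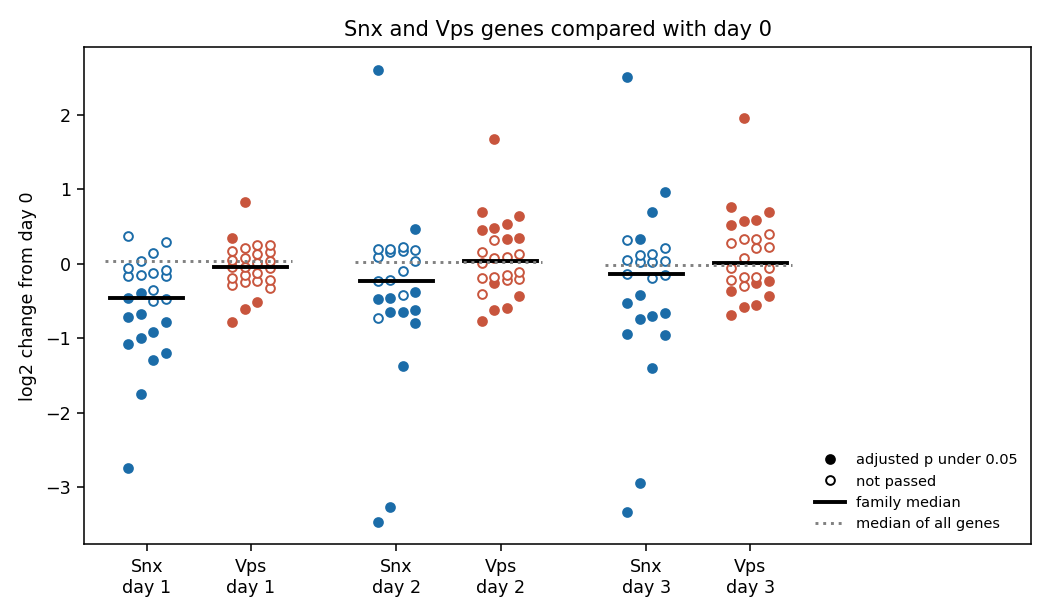
Log2 change from day 0 (vertical axis) of each Snx and Vps gene at days 1, 2 and 3; filled points passed an adjusted p of 0.05, black bars are family medians and dotted lines the median of all 8663 genes. The Snx median lies at -0.46, -0.23 and -0.14 and the Vps median at -0.04, 0.04 and 0.01.

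The family medians lay furthest apart at day 1, where the change of Snx genes was 0.41 below that of Vps genes (-0.41). Across all settings the day 1 difference lay between -0.45 and -0.26. It was -0.28 at day 2 (-0.28 to -0.20) and -0.15 at day 3. The difference between the family median levels had an SD of 0.20 between replicate arrays. That SD is of levels, where the median gene can differ between arrays, so it does not measure the spread of these changes. The day 3 value was -0.26 without day 3 replicate 1, -0.05 without day 3 replicate 2 and -0.06 with the authors' values. No test was made over the members, which were chosen with results known. Array by array, with each gene centred on its own mean, the Snx median was 0.24 and 0.34 on day 0, -0.25 and -0.28 on day 1, -0.03 and 0.08 on day 2, and -0.02 and -0.10 on day 3. Both day 0 arrays lay above all others and both day 1 arrays below. The Vps median stayed between -0.08 and 0.08 on all 8 arrays. Changes called and at least 2-fold were 5, 4 and 4 for Snx genes and 0, 1 and 1 for Vps genes on days 1, 2 and 3, beside 13.3%, 21.7% and 26.2% of all genes. The median size of a change, whatever its sign, was 0.46, 0.42 and 0.41 for Snx, 0.20, 0.33 and 0.34 for Vps and 0.35, 0.43 and 0.50 for all genes.

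**Figure D4:**
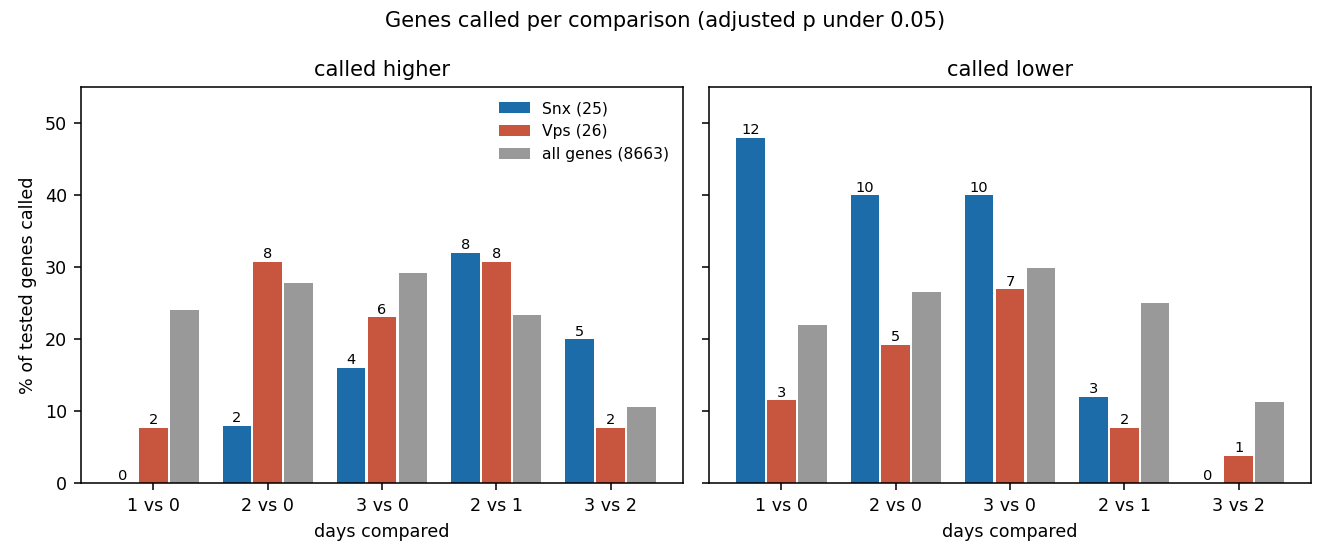
Percentage of tested genes called higher (left) and lower (right) in each comparison of days, for Snx, Vps and all genes; the number over a bar is the count of genes. The lower Snx bar at day 1 is the tallest, and no Snx gene is called higher there.

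From day 1 to day 2, 8 of 25 Snx genes rose and 3 fell, and 8 of 26 Vps genes rose and 2 fell, beside 23.4% of all genes higher and 25.0% lower. Of the 12 Snx genes lower at day 1, 4 rose in this step (Snx3, Snx8, Snx13 and Snx18), and 2 (Snx24 and Snx30) fell further. The other 4 Snx rises were of genes not called at day 1. Both comparisons use the same day 1 arrays, so genes picked as low at day 1 are more apt to rise in this step. The share of all genes lower at day 1 that then rose was not counted, so no recovery is read from these counts. The Snx rises were Snx10, Snx18, Snx8, Snx3, Snx14, Snx13, Snx20 and Snx6, from 2.32 to 0.31. The Snx falls were Snx30, Snx24 (-0.73) and Snx11 (-0.30). Among Vps genes the rises were Vps39, Vps54, Vps18, Vps26c, Vps11, Vps45, Vps53 and Vps37c, from 1.51 to 0.28, and the falls were Vps16 (-0.52) and Vps28 (-0.34). The Vps counts were 5 higher without day 1 replicate 2 or day 2 replicate 2, and 1 lower without either day 1 array and 0 without day 2 replicate 2. With median scaling, which put the median change of all genes at -0.13, the counts were 6 higher and 4 lower for Snx and 4 and 4 for Vps genes.

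From day 2 to day 3 little moved. In this step 5 Snx genes rose and 0 fell in limma's test, and 2 Vps genes rose and 1 fell, beside 10.6% of all genes higher and 11.3% lower. The rises were Snx32 (0.79), Snx13 (0.57), Snx24 (0.52), Snx14 (0.51), Snx21 (0.49), Vps26b (0.68) and Vps37c (0.36), and the fall was Vps25 (-0.35). At an unadjusted p under 0.05, 6 Snx genes were higher and 4 lower, and other settings called 0 to 3 lower. These counts were not stable: Snx genes higher numbered 3 without either day 1 array, 1 without day 2 replicate 1 and 2 without day 2 replicate 2 or day 3 replicate 2, 1 was lower without day 3 replicate 1, and the Vps counts were 0 or 1 without any 1 of the 6 arrays of days 1 to 3. With median scaling 3 Snx genes were higher and 2 lower, and 1 Vps gene was higher and 2 lower.

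Partners of these proteins outside both name families were read from lists of the same pathways. The counts below stand beside 24.0% of all genes higher and 21.9% lower at day 1, and 29.2% and 29.8% at day 3, with median changes of 0.03 and -0.01. Of 19 ESCRT partners 0 rose and 6 fell at day 1 (median -0.18), a share lower above that of all genes. At day 3, 4 rose and 2 fell (median 0.17), with both shares below those of all genes. Mvb12b, an ESCRT-I subunit, fell by 1.15 ± 0.09 by day 3 (adjusted p = 3.70e-05), while the ESCRT-III genes Chmp1b (0.81 ± 0.09) and Chmp5 (0.72 ± 0.15) rose. Of 9 genes around the class III PI3-kinase, which makes the lipid that PX domains bind, 2 rose and 2 fell at day 3 (median 0.06), below those shares: the kinase Pik3c3 rose by 0.69 ± 0.10, its activator Uvrag fell by 0.68 ± 0.08 and its inhibitor Rubcn fell by 1.05 ± 0.11.

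Of 10 partners of HOPS, CORVET and lysosome fusion, 0 rose and 7 fell at day 1 (median -0.54). At day 3, 4 rose and 3 fell (median -0.03), and the share lower was close to that of all genes. Tgfbrap1, the CORVET subunit that takes the place of Vps39, fell by 0.89, 1.12 and 1.21 ± 0.09 on the 3 days (adjusted p = 0.000303, 5.98e-05 and 3.22e-05). The endosomal SNARE Vti1b rose by 1.27 ± 0.19 at day 3 (adjusted p = 0.000955). Vipas39 fell by 0.69 ± 0.09 at day 1 and stood 1.11 above day 0 at day 3 (adjusted p = 6.16e-05).

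Of 16 retromer and retriever partners 1 rose and 7 fell at day 1 (median -0.34), a share lower above that of all genes. At day 3, 3 rose and 4 fell (median -0.15), with both shares below those of all genes. The recycling ATPase Ehd1 rose by 1.00 ± 0.09 at day 3 (adjusted p = 7.74e-05), and Commd10 and Commd1 of the CCC complex fell by 1.36 ± 0.12 and 1.00 ± 0.12. All 8 cargo receptors changed by day 3, 4 in each direction (median -0.14). Sort1, the sortilin that retromer returns to the Golgi, changed by -2.44, -3.53 and -4.30 ± 0.09 on the 3 days (adjusted p = 2.27e-07 at day 3). Its relative Sorl1 was not detected at day 3 and stood at least 2.87-fold lower (adjusted p = 3.23e-05), and the transferrin receptor Tfrc rose by 2.53 ± 0.10 (adjusted p = 1.72e-06). Of 6 Golgi SNARE and GARP partners 2 rose and 2 fell at day 3 (median -0.16), with Vamp4 at 0.93 ± 0.08 (adjusted p = 8.36e-05), Vamp3 at -0.49 ± 0.08 (adjusted p = 0.00197) and Vti1a at 0.36 ± 0.11 (adjusted p = 0.0279).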

How the data were processed

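Members and gene lists were chosen with earlier results of these data known. The authors deposited 1 linear intensity per probe and array, with no background subtracted as read from its values, beside it a detection p-value, paired with the signal per the file headers. Genes were named from the platform's annotation table (23978 of 25697 probes with 1 symbol, 0 with several, 1719 with none), and all 51 members matched RefSeq (GRCm38.p6) by Entrez number, with 0 symbols changed.

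Signals were processed in R 4.3.3 with limma 3.58.1 (neqc). Its normexp step took the background from the 798 negative-control values that the detection p-values imply, followed by an offset of 16, quantile normalization and log2. Detected probes with a symbol numbered 11946. The probes of the 15 members with more than 1 detected probe were called in opposite directions in 0 cases. The day was the only factor (4 levels, 8 arrays) in lmFit and eBayes, which left 4 residual degrees of freedom. Benjamini-Hochberg adjustment was made within each comparison. The number of arrays limits the precision; the offset compresses changes of dim probes. In simulated data, 63 of 100 genes changed by 1 and 23 of 100 changed by 0.5 were recovered at day 1, with 2 false calls among 8663 genes. No other genes changed there, whereas 24.0% of genes were called higher and 21.9% lower at day 1 in the data. The adjusted threshold is thereby stricter in the simulation, and its recovery rates do not give the power of the comparisons made here.

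Every detected member is named by role. Array values are given for called changes from day 0 of at least 2-fold and for paralogs called in opposite directions, and, chosen after their values were seen, for Snx13, Snx18, Vps16, Vps18, Vps26a and Vps33a. From each pathway list the 3 called genes with the largest day 3 change are named. Vps26c and Vps35l were moved to the retriever group after the values were seen. Same-numbered arrays showed little shared deviation: their deviations from the day means correlated at -0.08 to 0.07. Whether they shared a mouse or culture is not in the labels, and these correlations cannot decide it. The alternatives were other background, scaling, filter, probe, model and threshold settings, the authors' processed intensity values, a replicate block, and each array left out.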

Additional observations from a re-analysis of the deposited data

How the results depend on the processing

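Of 69 called changes from day 0 of single members, 46 kept their call in every alternative setting run and with any 1 array left out (45 in 11 settings, and Snx32 at day 1 in the 10 that tested it), all 69 kept their direction, and 18 (of 15 genes) lost their call in at least 1 fit without an array. A call was gained in at least 1 fit by 30 changes that did not pass, in 5 or more settings by Vps37b at day 1 (6), Snx20 at day 1 (5) and Vps41 at day 3 (5). Of 240 counts of genes in the alternative settings, 205 stayed within 1.5 times. The difference between the Snx and Vps median changes kept its sign and moved by less than 0.20 in all 50 cases. That limit is the SD between replicates of the difference in median levels, and not the spread of the difference in changes. Some differences moved by over 1.5 times (day 3 from -0.15 to -0.06, day 2 against day 1 from 0.31 to 0.14). The cause of the other moves was not tested. The detection filter, 2 arrays per day and dim signals limit calls for Vps26b, Vps37a and Vps4b. The size of changes also depended on the setting. Across all fits, Snx3 at day 1 ranged from -1.15 to -0.44 and Snx32 at day 1 from -1.28 to -0.35. Vps39 ranged from 0.80 to 1.99 at day 2 and from 0.98 to 2.27 at day 3, so these 3 genes fell under 2-fold in some fits. Snx30 at day 3 ranged from -3.38 to -1.57.

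At day 1 against day 0, higher Snx genes numbered 2 with no background correction, 1 with median scaling and 2 with a mean-variance trend, lower Vps genes 6 with no background correction and 7 with a trend, and higher Vps genes 1 at an adjusted p under 0.01. At that threshold, with fewer calls by construction, Vps genes at day 2 against day 0 were 4 higher and 3 lower, Vps genes lower from day 1 to day 2 were 1, and from day 2 to day 3 Snx genes higher were 2 and Vps genes 0 higher and 0 lower. From day 1 to day 2 with median scaling, 4 Vps genes were higher and 4 lower. In that scaling the median of all genes was 0.12 at day 1 against day 0 and -0.13 from day 1 to day 2.

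The step from day 2 to day 3 moved most often. Lower Snx genes numbered 3 with no background correction and with a trend, and 2 with an offset of 50, with median scaling, with detection on all 8 arrays and with the authors' values. Higher Snx genes numbered 3 with median scaling and with no detection filter. Higher Vps genes numbered 1 with median scaling, detection on all 8 arrays, no filter, the authors' values, a trend, only the 2 days compared and the replicate block. Lower Vps genes numbered 2 with no background correction and median scaling, and 0 with no filter, the mean of probes, only the 2 days and the replicate block. The replicate block changed no other count by over 1.5 times.

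With 1 array left out, higher Vps genes ranged from 1 to 2 at day 1, 4 to 8 at day 2 against day 0, 5 to 8 from day 1 to day 2 and 0 to 2 from day 2 to day 3. Lower Vps genes ranged from 3 to 5 at day 2, 4 to 7 at day 3, 0 to 3 from day 1 to day 2 and 0 to 1 from day 2 to day 3. From day 2 to day 3, Snx genes ranged from 1 to 4 higher and 0 to 1 lower.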
